A study of Rattus norvegicus with 16 samples.

Results

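The data are the microRNAs (miRNAs) of blood plasma from rats given an X-ray contrast medium, set against plasma of rats given saline. Each of the 8 arrays read the RNA of 1 plasma pool: 4 pools from CI-AKI rats (contrast-induced acute kidney injury, the name of the model) and 4 from control rats. A miRNA was included where it was detected on all 4 arrays of at least 1 of these groups, which held for 96 of the 350 rat miRNAs on the array. With pool 4 of both groups left out and detection required on all 3 remaining arrays of a group, 182 miRNAs were included. All rats were male Sprague-Dawley animals of 250 to 300 g, and both groups went 3 days without water and then received intramuscular furosemide, a diuretic, at 10 mg/kg. The CI-AKI rats then received Omnipaque (iohexol, a nonionic contrast medium of low osmolality with 350 mg iodine per ml) at 10 ml/kg into the tail vein over 5 min, and the controls an equal volume of normal saline. Blood was drawn 8 h later. Dehydration and furosemide were therefore common to both groups, and a difference between them concerns contrast medium on top of that state. Each pool combined the RNA of 3 rats, so 12 rats stand behind each group and the variation among its 4 arrays is that of averages over 3 animals. The series also holds 8 arrays of kidney, which enter no comparison here.

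A miRNA is a short RNA that guides a silencing complex to messenger RNAs, mostly by pairing through its seed, bases 2 to 8 from the 5′ end. miRNAs with the same seed form a family with largely shared targets. Plasma holds miRNAs outside cells, in vesicles, bound to protein or carried by lipoproteins. They come from blood cells and platelets, from endothelium and, after damage, from organs such as liver, muscle and kidney, which is why they are followed as markers of injury. In bulk plasma pools a different number of contributing cells and a different amount of RNA per cell cannot be told apart.

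The mature sequences of the miRNAs that the results turn on are given here, from the RefSeq annotation of the rat build GRCr8, with the seed in capitals. RefSeq entries matched 80 of the 96 miRNAs and 141 of the 182, through current arm names where the array used older ones. The first set holds the miRNAs with the smallest p over all pools, which share no seed with each other.
miR-327: cCUUGAGGggcaugagggu
miR-188: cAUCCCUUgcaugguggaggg
miR-874: cUGCCCUGgcccgagggaccga
miR-199a-3p: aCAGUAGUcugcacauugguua
miR-215: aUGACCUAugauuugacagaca
These lie at chr20:13161137-13161155 (minus strand), chrX:17919595-17919615 (plus strand), chr17:6626076-6626097 (plus strand), chr13:77116294-77116315 (plus strand) and chr13:99383003-99383024 (plus strand). The 3 with higher signal in CI-AKI plasma, miR-327, miR-188 and miR-874, are the ones rich in G and C, at 63.2%, 61.9% and 77.3%. The 2 with lower signal, miR-199a-3p and miR-215, have 40.9% and 36.4%.

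The second set shows families whose members are described together: the kidney and gut miRNA miR-192, which has the seed of miR-215, then miR-23a and miR-23b, then the miR-15/16 family and the miR-30 members with an entry.
miR-192: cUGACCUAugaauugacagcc
miR-23a: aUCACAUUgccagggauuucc
miR-23b: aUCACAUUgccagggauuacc
miR-15b: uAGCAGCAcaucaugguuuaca
miR-16: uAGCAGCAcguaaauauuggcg
miR-195: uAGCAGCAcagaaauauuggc
miR-497: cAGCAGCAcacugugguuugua
miR-30a: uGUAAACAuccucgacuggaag
miR-30c: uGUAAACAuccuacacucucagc
miR-30e: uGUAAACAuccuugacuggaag
The third set holds miRNAs that lead the comparison without pool 4. miR-347, miR-335 and miR-30d are named only.
miR-212: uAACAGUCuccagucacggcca
miR-133a: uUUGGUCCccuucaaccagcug
miR-133b: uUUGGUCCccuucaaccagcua
miR-145: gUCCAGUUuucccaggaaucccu
miR-183: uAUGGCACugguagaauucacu

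Several features of the arrays bear on every value below. Pool 4 was labelled weakly in both groups: the synthetic RNA added before labelling read 54.8 on the control and 164 on the CI-AKI array, against 928 to 3155 on the other 6, while the RNA added at hybridization read 20432 to 24664 on all 8. The pool 4 arrays detected 84 and 95 miRNAs and the others 156 to 211. Among those others, CI-AKI pool 1 had the lowest labelling signal (928) and the fewest detected miRNAs (156). The group means of these measures did not separate: detected miRNAs differed by -7.25 (CI-AKI minus control, exact permutation test, two-sided, p = 0.886), and log2 labelling spike-in signal by 0.12 (exact permutation p = 0.914). Without pool 4 the differences were -13.3 miRNAs (exact permutation p = 0.7) and -0.37 (p = 0.6); the smallest p possible is 0.0286 for 4 against 4 and 0.1 for 3 against 3. All plasma arrays lay on 1 slide, with control pools in odd and CI-AKI pools in even columns, so treatment and column cannot be told apart. The samples also carry 8 letter codes whose meaning is not stated. Between plasma and kidney, 6 of the letters switch treatment and 2 keep it. Groups follow the sample titles and the treatment labels throughout. Should each letter mark 1 set of rats, the treatment of 6 letters would be wrong in plasma or in kidney, and the directions given here would be in doubt; the labels do not settle this.

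**Figure D1:**
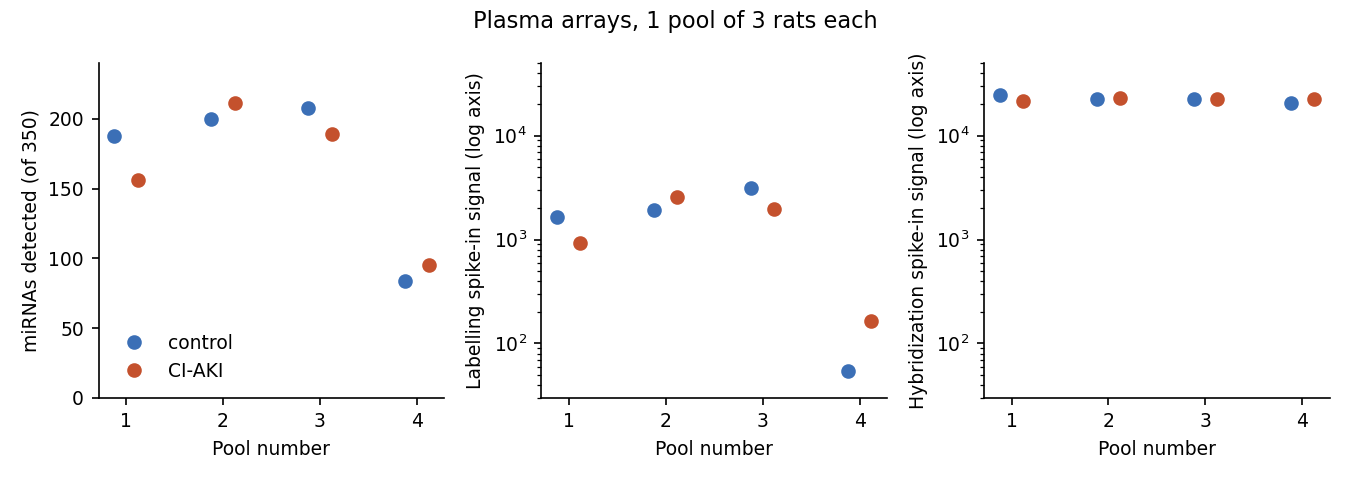
Detected miRNAs (left), signal of the synthetic RNA added before labelling (middle, log axis) and signal of the synthetic RNA added at hybridization (right, log axis) for each plasma array, by pool number. Each point is 1 array; pool 4 of both groups is low in the first and second panel, at 84 and 95 miRNAs, and level with the others in the third.

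The labelled fluid was set against its defining miRNAs. The red cell miRNAs miR-451, miR-144, miR-16, miR-25 and miR-92a and the leukocyte miRNAs miR-223, miR-142-3p, miR-142-5p, miR-150 and miR-146a were all among the 96. Of 6 neural miRNAs 4 were detected on no plasma array, and of 3 pancreatic ones 2. The epithelial miR-200 family, 5 miRNAs, did not enter the 96 and entered the 182.

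No plasma miRNA differed between contrast medium and saline past the threshold when all pools were used. Of 96 tested miRNAs, 0 passed an adjusted p of 0.05 (0.00% called; limma with Benjamini-Hochberg adjustment, smallest adjusted p = 0.836). At an unadjusted limma p under 0.05 there were 5 (5.21%), 3 with higher signal in CI-AKI plasma (miR-327, miR-188 and miR-874) and 2 with lower (miR-199a-3p and miR-215). The groups did not overlap for 5 miRNAs (5.21%), higher for miR-327 and miR-188 and lower for miR-199a-3p, miR-23a and miR-23b. Over all 96 the median log2 difference was -0.09, with 39 miRNAs higher and 57 lower, beside a median SD within groups of 0.51. Pools of one number deviated together, and with the pool number as a block 0 miRNAs passed (limma, smallest adjusted p = 0.319) and 10 were at an unadjusted p under 0.05. Leaving out 1 array could also change which miRNAs were tested. The 5 of 96 became 0 of 98 without control pool 1 and 1 of 97 without CI-AKI pool 1. They became 2 of 96 without control pool 2 or 3, 3 of 96 without CI-AKI pool 3 and 8 of 96 without CI-AKI pool 2. With more miRNAs tested, there were 9 of 155 without CI-AKI pool 4 and 16 of 182 without control pool 4. Values below are scaled signals, each array divided by its own 75th percentile, taken over those miRNAs that every array detected. Differences are CI-AKI minus control on the log2 scale. The floor of 0.976 lay under the lowest scaled signal of the 96, 2.54 for miR-483 in CI-AKI pool 2. Of the 96 miRNAs, 18 were not detected in control pool 4 and 4 were not detected in CI-AKI pool 4. Their undetected signals there were used as read.

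miR-327, a rodent miRNA, read 177, 244, 196 and 329 in control pools 1 to 4 and 686, 378, 363 and 348 in CI-AKI pools 1 to 4. All CI-AKI pools lay above all control pools, though CI-AKI pool 4 exceeded control pool 4 by little and CI-AKI pool 1 stood far above the rest. The difference was 0.89 ± 0.31 (SE, n = 4 pools per group; limma adjusted p = 0.836), and it was 1.29 for pools 1 and 2, the upper row of the slide, and 0.49 for pools 3 and 4, the lower row. It was above 0 under all 8 scalings tried.

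miR-188, an X-linked miRNA, read 47.1, 44.2, 51.8 and 64.6 in control pools and 96.7, 67.7, 92.7 and 68.5 in CI-AKI pools. The groups did not overlap, with pool 4 again the closest pair. Its difference was 0.64 ± 0.25 (SE, n = 4; limma adjusted p = 0.836), 0.83 for the upper row and 0.46 for the lower, and above 0 under all 8 scalings.

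The control pools of miR-874 read 17.6, 17.3, 22.9 and 37.3, and its CI-AKI pools 43.8, 28.4, 37.5 and 44.7. The groups overlapped through control pool 4, which exceeded CI-AKI pool 2. The difference was 0.75 ± 0.31 (SE, n = 4; limma adjusted p = 0.836).

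miR-199a-3p, a miRNA of fibroblasts, smooth muscle and platelets, read 262, 239, 219 and 270 in control pools and 108, 212, 149 and 147 in CI-AKI pools. Every CI-AKI pool lay below every control pool. The difference was -0.72 ± 0.26 (SE, n = 4; limma adjusted p = 0.836), -0.72 in each slide row. It was below 0 under all 8 scalings, between -0.98 and -0.10. Without pool 4 the groups overlapped and the difference was -0.41 ± 0.35 (SE, n = 3; limma adjusted p = 0.645).

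miR-215, a kidney and gut miRNA that p53 induces, read 365, 449, 245 and 371 in control pools and 96.8, 115, 219 and 381 in CI-AKI pools. CI-AKI pools 1 and 2 were low, pool 3 was just below its control, and pool 4 was as high as the controls. The difference of -1.0 ± 0.43 (SE, n = 4; limma adjusted p = 0.836) thus stood in the upper slide row (-1.94) and not in the lower (-0.06). miR-192, of the same seed, read 238, 266, 244 and 190 in control pools and 104, 270, 189 and 138 in CI-AKI pools. These overlapped, with a difference of -0.50 ± 0.32 (SE, n = 4; limma adjusted p = 0.941), below 0 under 7 of 8 scalings.

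Both miR-23 members had small differences and tight groups. miR-23a read 2046, 2028, 1813 and 2134 in control pools and 1425, 1594, 1606 and 1707 in CI-AKI pools. miR-23b read 271, 235, 256 and 264 against 190, 217, 213 and 224. The CI-AKI pools of both lay below all control pools, by -0.34 ± 0.21 and -0.28 ± 0.21 (SE, n = 4; limma adjusted p = 0.941 each). Without pool 4 the groups overlapped for both, and the differences were -0.09 and -0.04.

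miR-335 and miR-195 came next in p among the lower ones. miR-335 read 72.4, 96.5, 55.3 and 68.5 in control pools and 44.6, 74.5, 38.2 and 17.4 in CI-AKI pools, where it was not detected in pool 4 (-0.89 ± 0.42, SE, n = 4; limma adjusted p = 0.907). miR-195 read 80.9, 94.8, 90.5 and 83.7 against 48.6, 99.4, 38.6 and 53.1 (-0.64 ± 0.31, SE, n = 4; limma adjusted p = 0.907). CI-AKI pool 2 lay within the control range for miR-335 and above it for miR-195, and under 1 of 8 scalings, background correction by normexp, the sign turned for both. miR-139-3p differed mainly by pool number: controls read 366, 73.8, 289 and 90.5 and CI-AKI pools 239, 35.3, 237 and 55.7. Each CI-AKI pool was below its own control while the groups overlapped almost wholly (-0.67 ± 0.75, SE, n = 4; limma adjusted p = 0.941, with the pool number as a block adjusted p = 0.319).

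**Figure D2:**
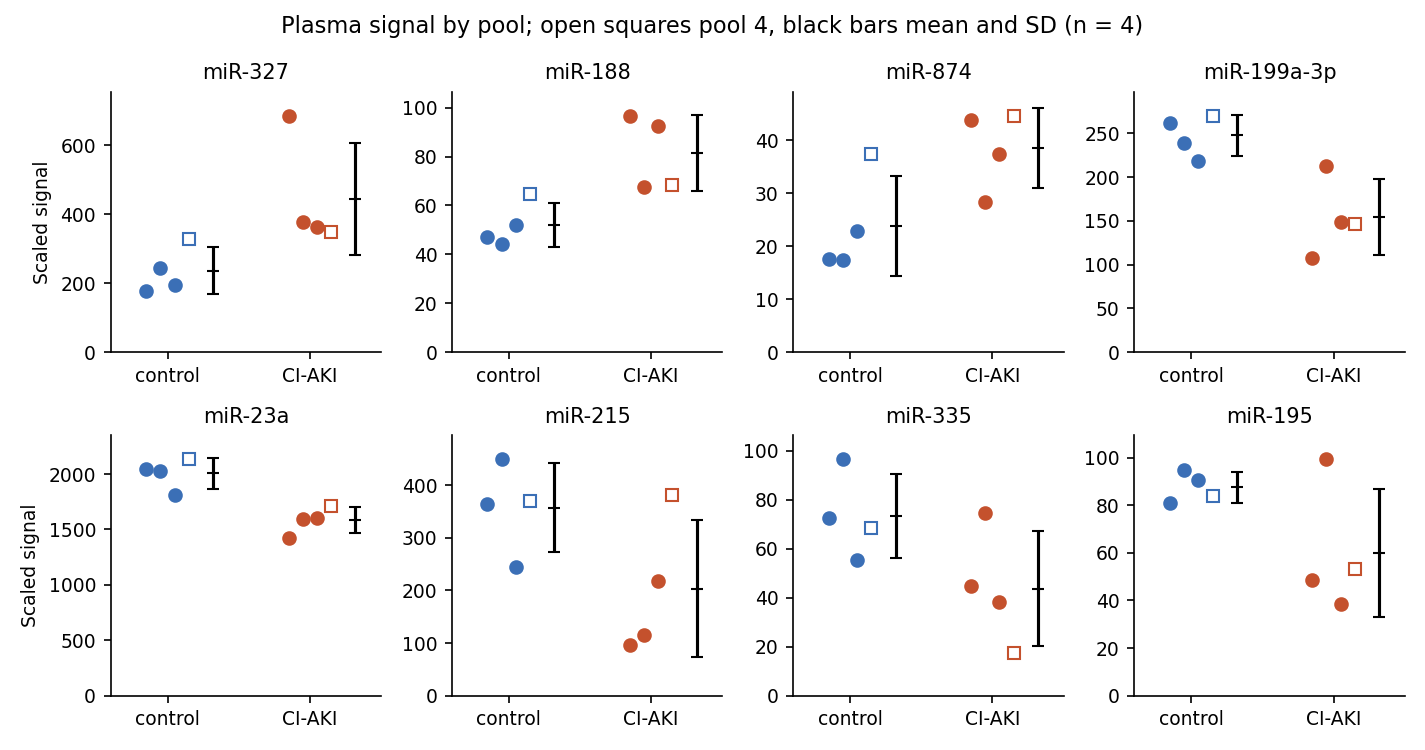
Scaled signal (arbitrary units, axes from 0) of 8 miRNAs in the 4 control and 4 CI-AKI plasma pools; circles are pools 1 to 3 in that order, open squares pool 4, black bars the mean and SD. CI-AKI pools lie above all control pools for miR-327 and miR-188 and below them for miR-199a-3p and miR-23a, and CI-AKI pool 4 of miR-215 lies with the controls at 381.

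miR-188, miR-30a and miR-30e are the plasma miRNAs that the study followed further, chosen on these samples, so their direction here is not independent evidence. miR-30a read 101, 206, 234 and 94.2 in control pools and 263, 262, 214 and 80.6 in CI-AKI pools. miR-30e read 73.0, 162, 170 and 72.2 against 135, 157, 186 and 89.3. For both the spread between pools within a group exceeded the difference between groups, 0.34 ± 0.46 and 0.32 ± 0.38 (SE, n = 4; limma adjusted p = 0.941 each). Of the whole miR-30 family, which is abundant in kidney epithelium, 3 of 5 tested members had higher and 2 lower mean signal, 0 at an unadjusted p under 0.05, with a median of 0.32 against -0.09 for all 96. miR-30d had the largest difference in that family, from 181, 283, 307 and 288 to 616, 388, 351 and 202. It was higher in CI-AKI pools 1 to 3 and lower in pool 4, with a difference of 0.48 ± 0.36 (SE, n = 4; limma adjusted p = 0.941).

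Families on the lower side were the miR-15/16 and let-7 families, neither with a member at an unadjusted p under 0.05. All 4 tested members of the miR-15/16 family, which restrains the cell cycle, had lower mean signal in CI-AKI plasma (median -0.35, against -0.09 for all 96), a median below 0 under all 8 scalings. miR-16 read highest of all 8 arrays in CI-AKI pool 4, at 1894 against 1190, 1276, 1342 and 1208 in the control pools. miR-15b read 330, 281, 265 and 359 in control pools and 137, 128, 227 and 637 in CI-AKI pools, again with pool 4 opposite to pools 1 and 2. Of the let-7 family, which promotes differentiation, 6 of 7 tested members were lower (median -0.40), a sign that turned under 1 of 8 scalings. let-7c read 368, 227, 250 and 425 in control pools and 303, 281, 116 and 245 in CI-AKI pools, so its difference of -0.47 ± 0.36 (SE, n = 4; limma adjusted p = 0.941) lay in the lower slide row (-0.95, against 0.01 in the upper).

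Grouped by source, the summed signals of the erythroid, leukocyte and endothelial lists overlapped between groups and those of the platelet list did not. For the erythroid list (5 of 5 tested) 2 miRNAs were higher and 3 lower, and its summed signal ran from 4870 to 6390 in control pools and from 3361 to 9320 in CI-AKI pools. miR-451, the red cell miRNA released by haemolysis, read 2600, 4287, 3786 and 3174 in control pools and 1683, 2317, 4248 and 6340 in CI-AKI pools. Its log2 ratio to miR-23a, a measure of haemolysis, ranged over 1.65 between arrays and differed by 0.25 between groups (exact permutation test, two-sided, p = 0.6). On the main scaling miR-451 itself differed by -0.09 and miR-23a by -0.34. Compared by pool number, the ratio was higher with contrast medium for pools 3 and 4 and lower for pools 1 and 2. For pool 4, with the widest gap in the ratio, miR-451 differed by 0.998 and miR-23a by -0.322. For pool 3 these differences were 0.166 and -0.175. The part of haemolysis in these values was not tested. The leukocyte list (5 of 5 tested) had 2 higher and 3 lower, with sums of 2620 to 3315 in control and 1752 to 3865 in CI-AKI pools. The platelet list (3 of 5 tested) and the endothelial list (3 of 4 tested) each had 0 higher and 3 lower, with medians of -0.23, below 0 under all 8 scalings, and -0.15, which turned under 1 of 8. The platelet sums were 952 to 1070 in control and 724 to 891 in CI-AKI pools, with 1 member, miR-199a-3p, at an unadjusted p under 0.05. Without pool 4, with 4 members tested, the platelet sums overlapped (1618 to 1995 against 1619 to 1990). With all pools the sums of the miR-23/27/24 list, which shares miR-24 and is not a list of a source, did not overlap either (3343 to 3852 against 2587 to 3177). The endothelial sums were 167 to 240 against 158 to 206. The part of these cell sources in single differences was not tested.

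Among organ lists, the 2 tested liver miRNAs were lower, led by miR-122, the main hepatocyte miRNA. It read 2074, 1056, 2104 and 1829 in control pools and 1294, 2761, 1293 and 332 in CI-AKI pools, a spread that spans both groups (-0.61 ± 0.57, SE, n = 4; limma adjusted p = 0.941), and without pool 4 its difference was 0.26 ± 0.43 (SE, n = 3). The 2 tested muscle miRNAs, miR-1 and miR-133b, were higher (median 0.39). Of the 8 tested kidney injury miRNAs 2 were higher, miR-188 and miR-494, and 6 lower (median -0.26), with 1 at an unadjusted p under 0.05, miR-188 (40.6% of all 96 were higher and 5.21% at that p). miR-21, induced in injured kidney, read 1825, 1850, 3096 and 2178 in control pools and 1512, 1652, 3072 and 2915 in CI-AKI pools, a difference of -0.01 ± 0.32 (SE, n = 4; limma adjusted p = 0.985). miR-494, reported to rise in injured kidney, read 15.8, 30.1, 34.2 and 19.7 against 28.9, 46.7, 51.1 and 24.8. It was not detected in control pool 4 and entered the 96 only through the CI-AKI group. Each CI-AKI pool read above the control of the same number, in pool 4 above an undetected signal, but the groups overlapped. The difference was 0.60 ± 0.35 (SE, n = 4, limma adjusted p = 0.941, with the pool number as a block adjusted p = 0.319). miR-210, the miRNA most closely tied to hypoxia, did not enter the 96.

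**Figure D3:**
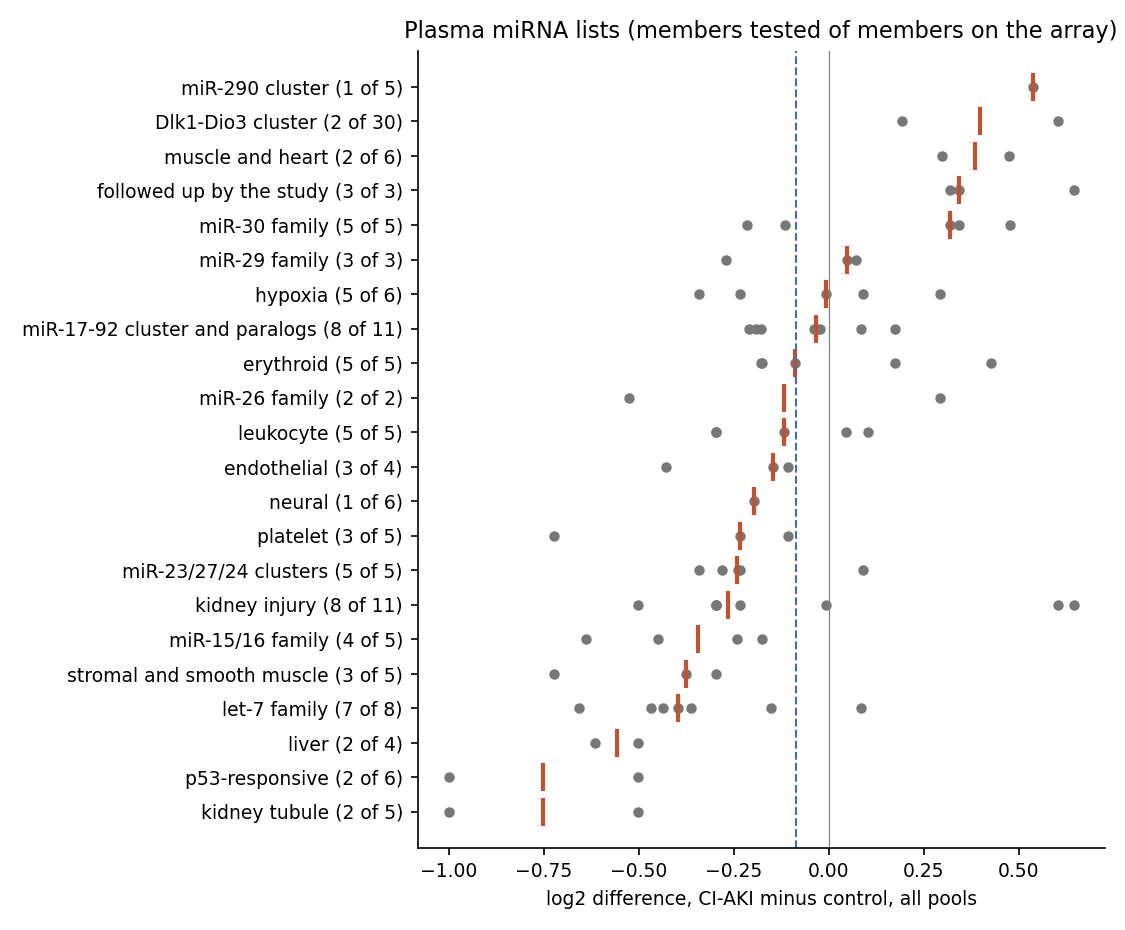
Log2 difference (CI-AKI minus control, all pools) of every tested member of 22 miRNA lists; grey points are miRNAs, orange bars list medians, the dashed blue line the median of all 96 tested miRNAs (-0.09). In 10 of the lists members lie on both sides of 0; 6 of 7 tested members of the let-7 family and all 4 of the miR-15/16 family lie below 0.

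Leaving out pool 4 of both groups gave a comparison of 3 against 3 pools in which most miRNAs had higher signal in CI-AKI plasma, a balance that turned under 5 of 8 scalings, and 0 of 182 passed the threshold (0.00% called; limma, smallest adjusted p = 0.0616). Unadjusted limma p-values under 0.05 numbered 32 (17.6%), 30 of them higher and 2 lower, and groups did not overlap for 34 (18.7%), 32 higher and 2 lower. Over all 182 the median difference was 0.26, with 130 higher and 52 lower, so differences of single miRNAs are also given relative to that median. With the pool number as a block, miR-347 alone passed (1 miRNA, limma adjusted p = 0.0411), and 49 lay at an unadjusted p under 0.05, 46 of them higher. At an unadjusted p under 0.05 the fits shared 4 miRNAs, and 18 of the 32 had not been tested with all pools. Of the 96 tested in both, 69 had the same sign, 27 went from lower to higher and 0 from higher to lower. Scaled signals without pool 4 rest on more reference miRNAs (155 in place of 74) and are on another scale than those above.

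**Figure D4:**
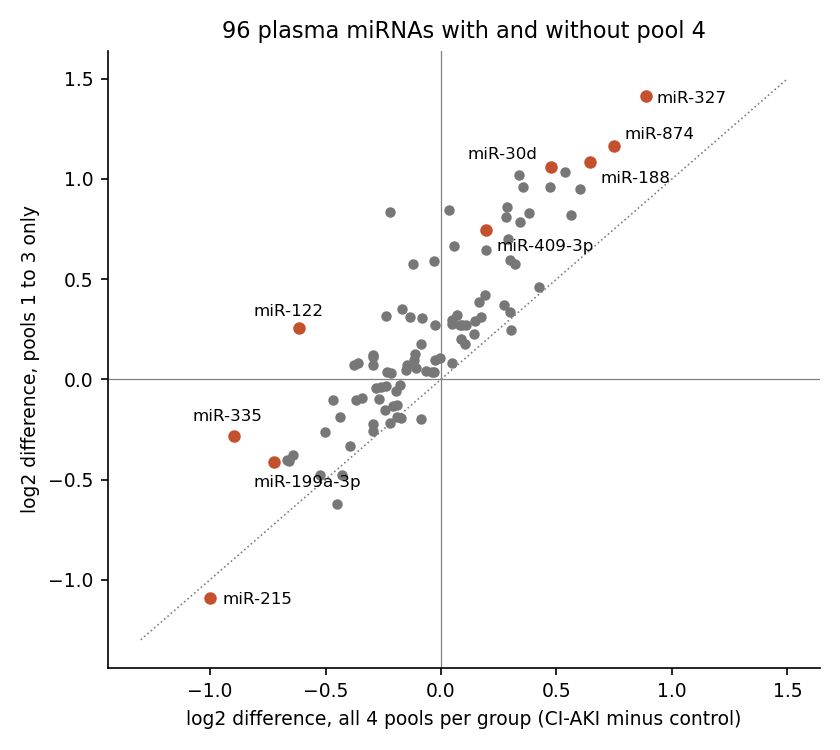
Log2 difference (CI-AKI minus control) of the 96 miRNAs with all 4 pools per group (horizontal) and with pools 1 to 3 only (vertical); each point is a miRNA, the dotted line marks equal values. Most points lie above the dotted line, and miR-122 lies left of 0 and above 0, at -0.61 and 0.26.

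miR-347 had the smallest p without pool 4. It read 15.7, 15.8 and 15.3 in control pools 1 to 3 and 34.2, 55.9 and 51.2 in CI-AKI pools, a wide gap with very even controls. The difference was 1.56 ± 0.32 (SE, n = 3; limma adjusted p = 0.0616), 1.30 above the median of all miRNAs, and above 0 under all 8 scalings (0.83 to 1.57).

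miR-212, of the miR-132/212 cluster that the factor CREB induces in neurons, read 21.7, 12.8 and 16.9 in control pools and 41.5, 58.3 and 35.4 in CI-AKI pools. All CI-AKI pools lay above all control pools, and the difference was 1.40 ± 0.34 (SE, n = 3; limma adjusted p = 0.108), 1.14 above the median. miR-327, miR-874 and miR-188 followed, at 1.41 ± 0.36, 1.17 ± 0.32 and 1.08 ± 0.31 (SE, n = 3; limma adjusted p = 0.108, 0.115 and 0.115). They were 1.16, 0.91 and 0.83 above the median, though for miR-327 this was -0.015 under 1 of 8 scalings. The other member of the miR-212 cluster, miR-132, has the same seed and differed by 0.26, against a median of 0.26 for all 182. Its sign turned in 6 of 17 alternatives.

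Without CI-AKI pool 1, the most weakly labelled of the remaining arrays, limma called 3 miRNAs, miR-212, miR-347 and miR-34c*. Without CI-AKI pool 2 it called 1, miR-28*, and without each of the other 4 arrays 0. The 32 of 182 miRNAs at an unadjusted p under 0.05 became 16 of 188 without CI-AKI pool 1 and 44 of 183 without CI-AKI pool 2. They became 36 of 182 without CI-AKI pool 3, and 24 of 197, 15 of 185 and 17 of 183 without control pool 1, 2 or 3. Of the 30 miRNAs that were higher at an unadjusted p under 0.05, 20 (66.7%) read highest in CI-AKI pool 1, against 56 (30.8%) of all 182; the part of its labelling in these values was not tested.

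Muscle miRNAs formed the list with the highest median here among those with at least 4 tested members. Of 4 tested muscle and heart miRNAs 4 were higher, as were 71.4% of all 182, and 3 were at an unadjusted p under 0.05 (17.6% of all 182). Their median was 1.12 against 0.26, above 0 under all 8 scalings. miR-133a, specific to muscle and heart, read 7.68, 6.42 and 12.7 in control pools and 22.5, 27.2 and 14.7 in CI-AKI pools. CI-AKI pools 1 and 2 were far above their controls and pool 3 only a little, which gave 1.82 in the upper slide row and 0.21 in the lower (1.28 ± 0.37, SE, n = 3; limma adjusted p = 0.115). miR-133b, of the same seed, read 194, 259 and 439 against 431, 897 and 421, with CI-AKI pool 3 below its control (0.96 ± 0.41, SE, n = 3; limma adjusted p = 0.239). miR-145, of smooth muscle, read 45.9, 143 and 68.3 in control pools and 348, 274 and 102 in CI-AKI pools, overlapping through CI-AKI pool 3 (1.48 ± 0.51, SE, n = 3; limma adjusted p = 0.206). It belongs to the stromal and smooth muscle list, whose 5 tested members had a median of 0.12, below the 0.26 of all 182. Of the other members, miR-143, transcribed with miR-145, differed by 0.07, miR-214 by 0.12, miR-199a-5p by 0.79 and miR-199a-3p by -0.41.

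All 5 miR-30 members were higher without pool 4, 2 of them at an unadjusted p under 0.05 (71.4% and 17.6% of all 182 were), with a median of 0.58 against 0.26 that was below 0 under 1 of 8 scalings. miR-30d read 377, 489 and 492 in control pools and 1375, 861 and 692 in CI-AKI pools, with no overlap (1.06 ± 0.35, SE, n = 3; limma adjusted p = 0.206). miR-30a read 211, 356 and 375 against 586, 581 and 422, likewise apart (0.78 ± 0.34, SE, n = 3; limma adjusted p = 0.244). miR-760-5p read 5.49, 4.43 and 3.40 against 13.9, 6.55 and 8.52 (1.08 ± 0.36, SE, n = 3; limma adjusted p = 0.206), but its probes differed in opposite directions by more than 0.5.

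On the lower side, miR-183 and miR-215 were the 2 at an unadjusted p under 0.05. miR-183, an epithelial and sensory miRNA, was detected in all 3 control pools and not detected in any CI-AKI pool, so it has only a bound there. By that bound it was at least 1.33-fold lower in CI-AKI plasma, each undetected signal taken as the higher of its own value and the lowest detected signal of its array. The bound was not tested. The limma adjusted p of 0.115 belongs to the difference computed from the undetected signals. Its 2 probes averaged only 2.92 and 7.56 in the control pools, beside a floor of 1.52. miR-34c*, named after its values were seen, was likewise detected in 3 control pools and 0 CI-AKI pools. It was at least 1.65-fold lower, a bound that was not tested either. Its limma adjusted p in that fit was 0.479, and its probes differed in opposite directions by more than 0.5. miR-215 read 760, 777 and 392 in control pools and 216, 256 and 431 in CI-AKI pools. It was low in CI-AKI pools 1 and 2 and slightly above its control in pool 3 (-1.09 ± 0.39, SE, n = 3; limma adjusted p = 0.206), and was 1 of 5 miRNAs whose difference was below 0 in this fit and in all 19 alternatives run on it.

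How many miRNAs counted as higher or lower without pool 4 depended on the scaling. Scaled to the 75th percentile over all 350 miRNAs, 55 were higher and 127 lower, with a median of -0.29, and limma called 2, miR-183 and miR-215. Quantile normalization gave 80 higher and 102 lower, the values processed by the authors 79 and 103, the labelling spike-in 68 and 114, and no scaling 42 and 140. Correction by normexp gave 150 higher and 32 lower, with a median of 0.78. At an unadjusted limma p under 0.05, 3 of 23 miRNAs were higher with the scaling to all miRNAs, 7 of 17 with quantile normalization and 6 of 18 with the values processed by the authors, against 30 of 32 with the scaling to detected miRNAs. With all pools the medians ran from -0.35 with the spike-in to 0.38 with normexp. Signs that held under all 8 scalings numbered 21 higher and 20 lower among the 96, and 41 higher and 19 lower among the 182.

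**Figure D5:**
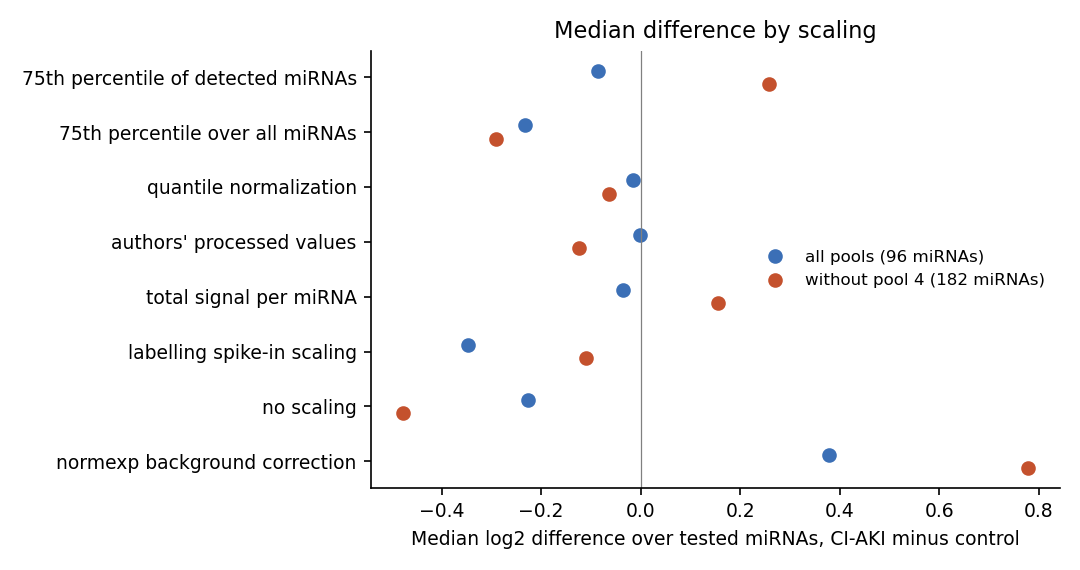
Median log2 difference (CI-AKI minus control) over the tested miRNAs under 8 scalings, with all pools (96 miRNAs, blue) and without pool 4 (182 miRNAs, orange). Without pool 4 the median lies above 0 under 3 scalings and below 0 under 5, from -0.48 to 0.78.

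Base composition and signal moved with the differences. Over the 80 miRNAs with a sequence, the log2 difference with all pools had a Pearson correlation of 0.30 with the share of G and C and a Spearman correlation of 0.20. These points share the 8 arrays and their scaling. Of 24 miRNAs with at least 50% G and C, 15 were higher (median 0.07), and of 56 below it 18 were (median -0.17). The 48 brighter of the 96 had a median of -0.18 with 14 higher, and the 48 dimmer 0.04 with 25 higher. G and C content itself had a correlation of -0.22 with mean log2 signal, and its part in any single difference was not tested. Without pool 4 only 77.5% of the 182 miRNAs had a sequence, so the same check does not cover that set. Over the 141 with a sequence the Pearson correlation was 0.43 and the Spearman correlation 0.42, and these points share 6 arrays and their scaling. Of 58 with at least 50% G and C, 52 were higher (median 0.595), and of 83 below it 50 were (median 0.08). The part of base composition here was not tested. The signs for pools 1 and 2 and for pools 3 and 4 were alike for 45 of the 96.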

How the data were processed

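RNA of plasma pools was read on 1-colour Agilent rat miRNA arrays with 20 spots per miRNA. Per the file headers, Agilent Feature Extraction 10.7.3.1 gave the spot intensity, deposited as a background-subtracted, detrended signal that was not normalized between arrays; per the labels' protocols, labelling used Agilent's kit for miRNA. A table of log2 values deposited by the authors was an alternative; its columns correlated with the log2 scanner signal of the same plasma array at 0.980 to 0.997 over detected miRNAs, with column medians over miRNAs of 1.94 to 2.22. Its steps and centring were not stated in the headers or labels.

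From the scanner files, signals were averaged over spots of a probe and then over probes of a miRNA, without outlier-flagged and control spots. Arrays were divided by their 75th percentile over miRNAs detected on all arrays compared (74 with all pools, 155 without pool 4) and brought back to a common level, a floor was set (0.976 and 1.52) and log2 was taken. The floor is low for the pool 4 arrays, where scaled signals of detected miRNAs began at 20.9 and 18.4. Differences were tested with limma 3.58.1 (lmFit and eBayes in R 4.3.3), two-sided, p-values adjusted by Benjamini-Hochberg over all tested miRNAs, and single values per array with exact permutation tests. The limma fit was also run on simulated data with known changes, drawn as independent arrays. That simulation held no correlation between same-numbered pools, no weakly labelled arrays and no undetected signals, so it does not cover them. Probes of a miRNA differed in opposite directions by more than 0.5 for 5 of 95 miRNAs with all pools and 10 of 180 without pool 4. Names are those of the array design.

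Pools of the same number correlated in their deviations from the group means at 0.22, 0.49, 0.62 and 0.60 with all pools. Without pool 4 the correlations were 0.39, 0.40 and 0.25. All were over 0.1, so a fit with the number as a block was run beside the main fit. Unless that block is named, the SEs and limma p-values given here leave the pairing out. Same-numbered pools were neighbours on the slide, and the labels give no other pairing. Whether the pools came from separate experiments is not stated. The number of arrays limits the precision.

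The named miRNAs are the 10 smallest p of each fit, those without overlap, the brightest 5, the 5 largest differences each way, the 5 highest and lowest SDs, up to 4 members of each of 24 lists, miR-188, miR-30a, miR-30e, miR-21, miR-122, miR-210, and miRNAs detected in 1 group and on at most 2 arrays of the other. miR-34c*, miR-28* and miR-132 were named after their values were seen. The members and lists were chosen with earlier results of these data known. Alternatives changed background correction, scaling, detection filter, floor, blocks and the arrays used; the scaling to the labelling spike-in was added after seeing the data. The lists not described in the report had these tested counts and median log2 differences with all pools: the neural list 1 of 6, -0.20; miR-17-92 cluster and paralogs 8 of 11, -0.03; miR-23/27/24 clusters 5 of 5, -0.24; miR-29 family 3 of 3, 0.05; miR-26 family 2 of 2, -0.12. The stromal list had 3 of 5, -0.38. The kidney tubule list had 2 of 5 and the p53 list 2 of 6, in both the same miRNAs, miR-192 and miR-215, hence -0.75 for each. The hypoxia list had 5 of 6, -0.01, the Dlk1-Dio3 cluster 2 of 30, 0.40, and the miR-290 cluster 1 of 5, 0.54. Pancreatic and miR-200 lists had 0 tested. Plots used matplotlib 3.10.9, pandas 2.3.3 and Python 3.11.15.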

Additional observations from a re-analysis of the deposited data

Results flagged for a closer look

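A single array stood apart from the other 3 of its group in 8 of 120 sets of 4 values examined (a gap to the nearest array of more than Dixon's 95% critical share of the range, which chance gives in about 1 of 20 sets). The control pool 4 array was low in detected miRNAs (84), in log2 signal before scaling (5.02) and in log2 labelling spike-in signal (5.78). The scaled signal of miR-327 was high in CI-AKI pool 1, at 686, and that of miR-30d was low in control pool 1, at 181. In control pool 4 miR-409-3p read 156, miR-483 122 and miR-664 86.3, each against under 20 in the other control pools, and CI-AKI pool 4 was likewise high for these 3, at 95.9, 45.0 and 54.2.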

How the results depend on the processing

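With all pools, 0 miRNAs passed under each of 23 alternatives. Without pool 4, 0 passed under 15 of 19; 2 passed with scaling to the 75th percentile over all miRNAs (miR-183 and miR-215), 1 with the replicate block (miR-347, limma adjusted p = 0.0411, and 0.00629 to 0.890 over its 18 alternatives), and 0 to 3 when leaving out 1 array. The pool number as a block changed no other call. For miR-183 normexp correction gave a difference of 0.80 in place of -1.26, both resting on CI-AKI signals that were not detected, where the main scaling gives only the bound of at least 1.33-fold, and the cause was not tested. Leaving out 1 array at a time, the difference in detected miRNAs ran from -35.9 to 15.3, in log2 signal before scaling from -1.28 to 0.66 and in log2 labelling spike-in from -1.21 to 0.96. Bare signs held under every alternative for 31 of the 96 miRNAs and 46 of the 182. Leaving out pool 4 on the same 96 miRNAs gave 15 at an unadjusted p under 0.05, and detection on at least 1 array raised the tested miRNAs from 96 to 233 with 0 passing and 6 at an unadjusted p under 0.05 (limma, smallest adjusted p = 0.999). Weak labelling of pool 4 limits what was detectable in dim miRNAs there.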
